A study of Mus musculus with 28 samples.

Results

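The transcripts described here are those of the midbrain of male BALB/c mice that received PBS only. They were read from the PBS channel of 13 of the 28 arrays of a two-colour series, which together hold 7 of its 13 biological replicates. The mice were 8 weeks old, were given 300 µl of PBS under the skin, and were killed by decapitation 18, 72 or 192 h later. The members are the channels, Cy3 or Cy5, that held PBS midbrain on arrays made with total RNA and numbered from 445, without array 447. The 18 h group had 3 replicates, and the 72 h and 192 h groups had 2 each. The second channel of each array held RNA from animals that carried CT-26.WT cells, a colon carcinoma line, and is not used. Each replicate was hybridised once with PBS in Cy3 and once with PBS in Cy5, except 72 h replicate 3, for which only the Cy3 array was kept. The labels do not say whether a replicate was 1 animal or a pool, so p-values measure only the spread between these samples, which may be technical.

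The brightness of a gene is given as a percentile, that is, the rank of the background-subtracted intensity of its spot among all spots of the same array, averaged over the arrays that showed the spot. Values after ± are SDs over 7 replicates unless another n is given. Bright and dim members named for a gene list are those read on at least 10 arrays. In all, 8729 named genes had a value on at least 3 of the 13 arrays, and 2522 had one on all 13. Brightness also depends on how well each printed oligonucleotide binds, so an order between genes is an order of spots and not of mRNA amounts. A spot with no scan above background has no rank and is left out of the mean, so the mean of a dim gene rests on the arrays that showed it.

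The midbrain holds the dopamine neurons of the substantia nigra and the ventral tegmental area, which make dopamine with tyrosine hydroxylase (Th) and aromatic amino acid decarboxylase (Ddc). Around them lie GABA, glutamate and serotonin neurons, myelinated fibre tracts, astrocytes, microglia and blood vessels. Neurons use much of their ATP to restore ion gradients, and that ATP comes mainly from the respiratory chain, whose subunits, like those of the ribosome, are made from abundant mRNAs in most tissues. A bulk sample averages over all of these cells, and fewer cells of a type cannot be told apart from less RNA per cell.

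The arrays differed in quality. Between 49.6% and 99.8% of the spots of an array showed signal, and repeat scans of 1 array correlated at a Spearman's rho between 0.509 and 0.993 over spots. Over the 6 replicates with both dyes, the 2 arrays of a replicate correlated at 0.523 on average (0.2898 to 0.8288). Arrays of different replicates correlated at 0.321 with the same dye and at 0.317 with the other dye (36 pairs each). The 21 pairs among 72 h and 192 h arrays averaged 0.514, and the 15 pairs among 18 h arrays 0.230. The left-out array 447 averaged 0.0823 with the 13 others. These correlations share the oligonucleotides and the print layout and are given as a description.

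**Figure D1:**
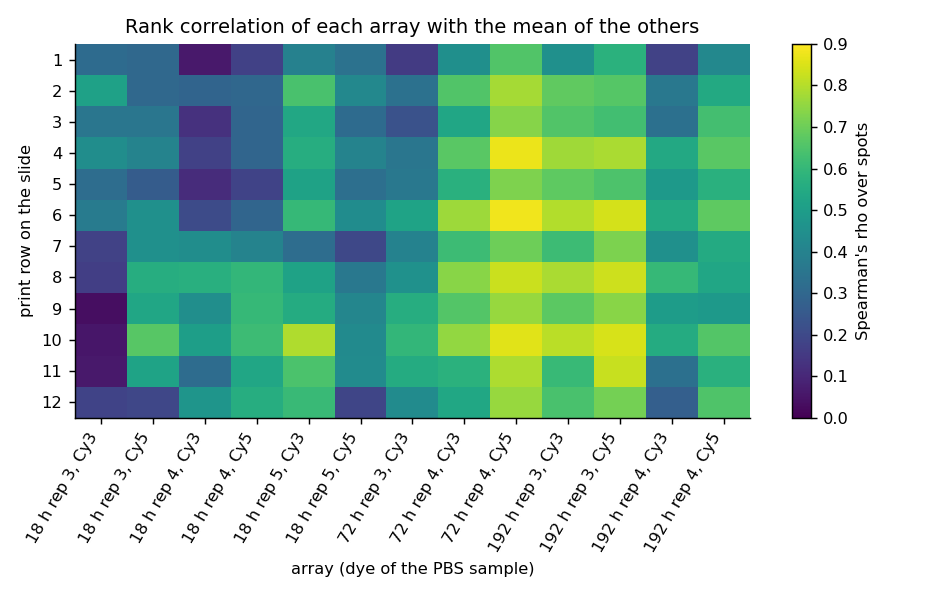
Spearman's rho over spots between each array and the mean of the other arrays, for each of the 12 print rows of the slide (vertical axis) and each of the 13 arrays (horizontal axis, named by time, replicate and dye of the PBS sample). The Cy3 array of 18 h replicate 3 lies between 0.03 and 0.06 in print rows 9 to 11, while the Cy5 array of 72 h replicate 4 reaches 0.88 in print row 6.

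Over all 8729 genes the mean percentile ran from 9.08 to 98.9, with a median of 46.6. The median gene varied by 19.9 percentile points over the replicates (SD). The 161 genes above the 90th percentile, 1.84% of all, had a median SD of 6.55, against 21.5 for genes between the 40th and the 60th percentile. Genes above the 75th percentile numbered 879 (10.1%), and 353 genes (4.04%) lay below the 25th. A mean near the end of the scale leaves little room for spread, so these SDs do not show that the top of the order is better resolved than its middle.

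The 20 brightest genes were taken from the 2522 with a value on all 13 arrays. A gene missing on any array could be as bright and is not in this list. The 20 covered mitochondrial enzymes, ribosomal proteins, proteins that bind actin, vesicle proteins and markers of glia. Fdx1, which encodes the mitochondrial electron carrier ferredoxin, was the brightest at 98.9 ± 0.671 (SD, n = 7), and its replicates lay between 97.98 and 99.98 with a median of 98.6. Gpr137c, which encodes a multi-pass membrane protein, followed at 98.3 ± 0.827, with replicates from 97.2 to 99.4. Septin4, a septin found in oligodendrocytes and neurons, stood at 98.2 ± 0.827, with replicates from 97.0 to 99.6. These 3 genes were bright in all 7 replicates and differed from each other by less than 1 SD of Fdx1. Srxn1, the sulfiredoxin that restores oxidised peroxiredoxins, averaged 97.6 ± 3.33 and S100b, a calcium-binding protein of astrocytes, 97.4 ± 1.62.

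After them came Rpl37, a protein of the large ribosomal subunit, at 97.1 ± 3.59, and Dclre1a, a nuclease of DNA crosslink repair, at 97.0 ± 3.33. Scg2, a secretogranin of dense-core vesicles in neurons and endocrine cells, averaged 97.0 ± 3.60. Cox5b, a subunit of cytochrome c oxidase, stood at 96.9 ± 3.24. The other brightest genes included Rtn3, a reticulon of the endoplasmic reticulum (96.7 ± 2.47), Dbi, which binds acyl-CoA and is known in astrocytes (96.6 ± 4.70), and Robo4, a receptor of blood vessel endothelium (96.1 ± 2.499). Tmsb4x, which binds actin monomers, averaged 95.9 ± 4.15, and Cfl1, the actin-severing cofilin, 95.8 ± 5.16. Syt4, a synaptotagmin of secretory vesicles, stood at 95.8 ± 4.23. In these genes no replicate fell below 84.7, and 13 of the 20 lay above the 90th percentile in every replicate. Among genes read on all 13 arrays, the 20th, Uqcrh (95.7 ± 4.06), and the next, Armc1 (95.7 ± 1.80), differed by less than either spread. The end of this list is therefore arbitrary.

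**Figure D2:**
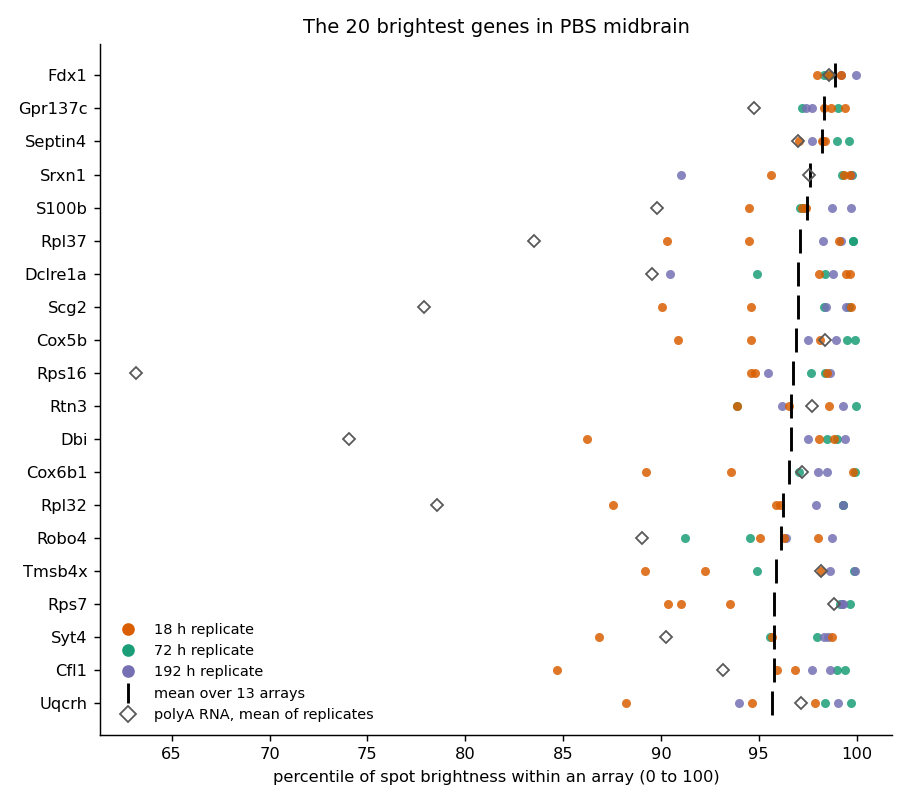
The 20 brightest genes among those with a value on all 13 arrays, by percentile of spot brightness within an array (horizontal axis). Each dot is 1 of 7 replicates coloured by time, the vertical bar the mean over 13 arrays, and the open diamond the mean of 4 replicates of polyA RNA. Fdx1 lies between 97.98 and 99.98 in all replicates, and the diamond of Rps16, at 63.2, lies farthest from its mean.

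The start regions of 7 of these genes are shown as examples. They are shorter than the windows used over all genes further on, so their matches cannot be compared with the shares given there. Each line has the 80 bases before and the 20 bases from the annotated start, 5′ to 3′ on the gene's strand, from RefSeq (GRCm38.p6). Capitals mark GGGCGG, the core of the GC box bound by Sp factors, on either strand; TATAAA, the core of the TATA box, was looked for as well and lies in none of them. GGGCGG is found in 4 of the 7 (Fdx1, Gpr137c, Srxn1 and Rpl37) and not in Septin4, Rps16 or Rps7. The regions are chr9:51963583-51963682 on the minus strand for Fdx1, chr14:45219637-45219736 on the plus strand for Gpr137c, and chr11:87566609-87566708 on the plus strand for Septin4. They are chr2:152105444-152105543 on the plus strand for Srxn1, chr15:5116533-5116632 on the plus strand for Rpl37, chr7:28350609-28350708 on the plus strand for Rps16, and chr12:28635934-28636033 on the minus strand for Rps7.
Fdx1: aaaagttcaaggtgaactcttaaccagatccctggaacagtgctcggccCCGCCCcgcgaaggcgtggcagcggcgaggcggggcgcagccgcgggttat
Gpr137c: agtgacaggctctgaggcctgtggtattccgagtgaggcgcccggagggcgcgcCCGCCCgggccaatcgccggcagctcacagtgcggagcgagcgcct
Septin4: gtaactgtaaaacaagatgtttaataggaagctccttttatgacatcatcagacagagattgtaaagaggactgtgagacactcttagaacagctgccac
Srxn1: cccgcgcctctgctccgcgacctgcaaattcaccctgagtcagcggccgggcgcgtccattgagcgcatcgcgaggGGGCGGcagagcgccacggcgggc
Rpl37: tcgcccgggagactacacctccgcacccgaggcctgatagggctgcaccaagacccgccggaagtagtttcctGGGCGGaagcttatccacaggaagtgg
Rps16: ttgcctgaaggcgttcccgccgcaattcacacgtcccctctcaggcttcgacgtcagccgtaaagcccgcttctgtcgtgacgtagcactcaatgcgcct
Rps7: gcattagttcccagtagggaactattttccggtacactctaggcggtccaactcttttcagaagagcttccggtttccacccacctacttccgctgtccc
A match in such a window is a description of the letters and not evidence of binding, and Rpl32 is named only.

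The machinery of protein synthesis and respiration made up a large part of the bright end. Of the 161 genes above the 90th percentile, 38 encoded cytosolic ribosomal proteins or subunits of the respiratory chain and ATP synthase, which is 23.6% of them and 43.7% of the 87 genes of those lists. Among 36 cytosolic ribosomal protein genes, 32 lay above the 50th percentile and 18 above the 90th, with a median of 90.8. Rps16 averaged 96.7 ± 1.83, with replicates from 94.6 to 98.7. Rps13 averaged 96.7 ± 2.41 and Rpl32 96.2 ± 4.21, while Rps19, at 35.2 ± 27.9, and Rpl3l, the form of striated muscle, at 28.3 ± 15.5, were the dimmest. The list median varied between 80.3 and 98.5 from replicate to replicate. Ribosomal protein genes have near-identical processed copies in the mouse genome, and which copies an oligonucleotide binds was not tested.

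Complex I, the entry point of electrons into the respiratory chain, had a median of 89.3 over 20 subunits, of which 17 lay above the 75th percentile. Ndufa6 (94.9 ± 6.197), Ndufs7 (94.7 ± 4.43), Ndufa4 (94.7 ± 6.21) and Ndufb11 (94.5 ± 7.15) led it, and Ndufa3 was dim at 46.4 ± 8.32. Without the 18 h arrays the median of complex I was 96.0. Complexes II to IV had a median of 81.9 over 22 genes, with Cox5b, Cox6b1 (96.5 ± 3.89) and Cox6a1 (95.6 ± 3.72) among the brightest. Their dim members were Cox7a1 (34.6 ± 27.9), the form of heart and skeletal muscle, and Cox7b2 (24.4 ± 15.3). ATP synthase had a median of 82.6 over 9 genes. Atp5o (95.2 ± 3.95), Atp5h (94.7 ± 5.23) and Atp5a1 (93.7 ± 11.5) were its brightest members, and Atp5j2, at 32.4 ± 20.6, its dimmest.

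Other energy genes were less uniform. The citric acid cycle had a median of 70.7 over 9 genes, from Sucla2, a subunit of succinyl-CoA synthetase (90.8 ± 17.0), to Suclg2, a subunit of its GTP-forming version (45.1 ± 16.2). Glycolysis had a median of 65.9 over 7 genes: Pgk1 (94.5 ± 9.0) and Ldhb (90.9 ± 5.95), the lactate dehydrogenase subunit of oxidative tissue, were bright, and Hk1, the hexokinase of brain, stood at 48.9 ± 16.7. Gapdh, a common reference gene, reached only 52.4 ± 21.3, with replicates of 31.2, 56.7 and 84.1 as lowest, median and highest. The proton pumps of vesicles and the sodium-potassium pumps had a median of 74.8 over 16 genes, led by Atp6v1d (91.0 ± 12.6), Atp6ap2 (90.7 ± 11.6) and Atp6v1a (90.4 ± 15.2). Their dimmest member, Atp6v1e2, the E subunit of testis, averaged 28.8 ± 27.1.

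Among other common machinery, splicing factors had a median of 70.2 over 32 genes, with Hnrnpu, which binds nuclear RNA, at 93.7 ± 9.49. The proteasome had a median of 68.2 over 25 genes, with Psma1 (88.6 ± 9.63) and Psmb6 (88.5 ± 11.9) at the top and Psma8, the form of germ cells, at 28.5 ± 18.7. Mitochondrial ribosomal proteins had a median of 64.9 over 52 genes, of which 43 lay above the 50th percentile and 1, Mrpl42 (90.3 ± 15.1), above the 90th. Chaperones (54.2 over 45 genes) and translation factors (53.0 over 26) lay nearer the median of all genes. Even there, Dnaja1, a partner of Hsp70, reached 93.6 ± 12.4, and Hsp90aa1, the inducible form of Hsp90, 92.2 ± 10.001. Actb, the cytoplasmic beta actin, averaged 89.4 ± 6.34.

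**Figure D3:**
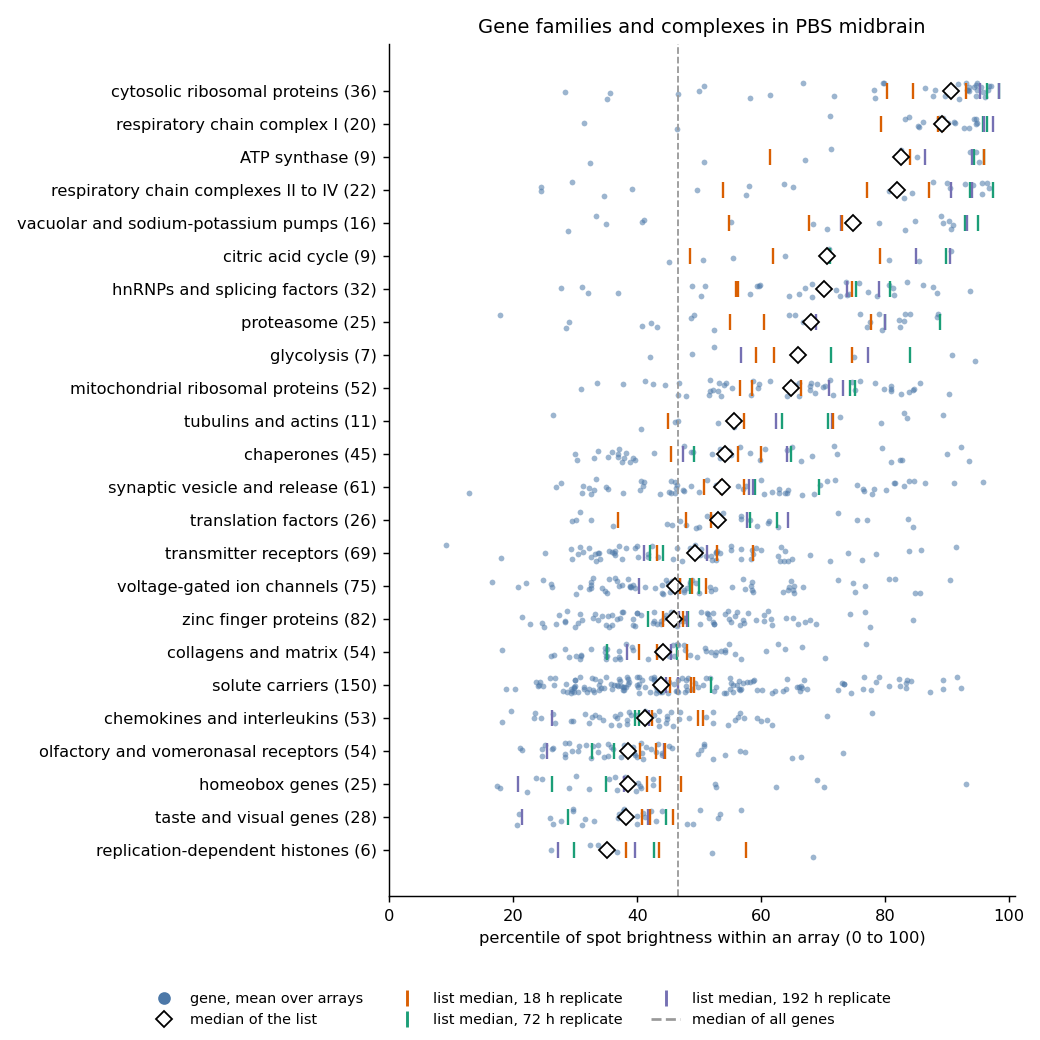
Percentile of spot brightness within an array (horizontal axis) for gene families and complexes (vertical axis, number of genes in brackets); dots are genes, open diamonds list medians, coloured bars list medians of the 7 replicates, and the dashed line the median of all genes, 46.6. Cytosolic ribosomal proteins (90.8) and complex I (89.3) stand highest, and replication-dependent histones (35.2) lowest.

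Genes shared by most neurons were bright as a group. Of 20 general neuronal genes, 17 lay above the 50th percentile and 12 above the 75th, with a median of 79.0, against 42.8% and 10.1% of all genes. Stmn3, which acts on microtubules, averaged 92.9 ± 9.52, Map2, the microtubule protein of dendrites, 92.3 ± 12.2, and Snap25, a SNARE protein of the nerve terminal, 91.2 ± 10.3. Elavl3, an RNA-binding protein of neurons (38.7 ± 23.5), and Eno2, the enolase of neurons (42.1 ± 38.6), were dim in this list. Eno2 ran from 1.74 to 98.7 among replicates, so its mean says little. The list median was 54.0 in 18 h replicate 4 and between 76.5 and 93.6 in the others.

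The wider set of vesicle and release genes was not bright as a whole, with a median of 53.6 over 61 genes and 2 above the 90th percentile. Syn2, a synapsin on vesicles, averaged 86.5 ± 11.97, and Dnm1, the dynamin of vesicle recycling, 84.7 ± 14.6. At the other end, Nsf, the ATPase that takes SNARE complexes apart, averaged 12.9 ± 10.7, with replicates of 0.501, 5.26 and 26.6 as lowest, median and highest. On the polyA arrays, which are of other designs, Nsf averaged 79.5.

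Markers of dopamine neurons lay on both sides of the median of all genes, with 6 of 13 above the 50th percentile and a list median of 49.6. Pitx3, a transcription factor that midbrain dopamine neurons need, was brightest at 78.3 ± 13.6, and its replicates were 54.5, 78.6 and 94.2 as lowest, median and highest. Lmx1b, which acts with it in development, averaged 74.4 ± 13.7. Chrna6, a nicotinic receptor subunit of dopamine neurons, averaged 74.1 ± 17.9, and Sncg, a synuclein, 73.9 ± 13.4. No replicate of these 4 genes was below 38.9.

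The enzymes of dopamine synthesis were not bright. Th averaged 47.9 ± 16.3, with replicates of 26.5, 45.0 and 75.3 as lowest, median and highest, and Ddc 55.3 ± 9.42, with 48.2, 54.0 and 73.6. Both lay near the median of all genes. Oligonucleotides bind differently and no other tissue was read, so these 2 levels do not bear on the identity of the tissue. The patterning genes En1 and En2 averaged 40.3 ± 18.1 (n = 7) and 25.5 ± 18.7 (n = 6). The transporters Slc6a3 and Slc18a2 were not analysed here. The list median was 59.4 on Cy3 arrays and 47.3 on Cy5 arrays, and 73.9 over the members with a value on all 13 arrays, where that of all genes was 59.9. On polyA arrays it was 40.7, below the 44.5 of all genes.

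GABA neuron markers had a median of 61.1 over 10 genes. Calb1, a calcium buffer, stood at 85.9 ± 15.0, Gata3, a transcription factor of midbrain GABA neurons, at 77.3 ± 23.4, and Pvalb, another calcium buffer, at 77.0 ± 26.8. Slc32a1, which loads GABA into vesicles, averaged 76.7 ± 25.2, whereas Gad1, which makes GABA, averaged 49.3 ± 33.8 and ran from 1.95 to 96.4. Glutamate neuron markers had a median of 54.1 over 6 genes. Neurod6, a transcription factor of forebrain projection neurons that is also found in some midbrain dopamine neurons, was bright at 91.3 ± 4.22, with no replicate below 84.97. Markers of serotonin, noradrenaline and acetylcholine neurons had a median of 38.5 over 7 genes. In that list Slc6a4, the serotonin transporter, averaged 42.7 ± 13.1 and Slc18a3, the vesicle transporter of acetylcholine, 64.0 ± 20.7.

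Markers chosen for brain regions next to the midbrain had a median of 48.9 over 22 genes, close to that of all genes. Besides Neurod6 and Calb1, Tcf7l2, a transcription factor of the thalamus, reached 70.8 ± 18.3. Zic1, a transcription factor of the cerebellum, averaged 27.1 ± 12.4. Markers of the pituitary and pineal had a median of 43.1 over 6 genes. The part of neighbouring tissue in any value was not tested.

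Among glia, astrocyte markers had a median of 68.4 over 15 genes, of which 14 lay above the 50th percentile and 4 above the 90th. S100b led, followed by the metallothionein Mt1 (94.4 ± 3.27), Ndrg2, a protein of astrocyte processes (92.2 ± 9.88), and Plpp3, a lipid phosphatase (91.3 ± 7.78). Mt3, the metallothionein typical of brain, was the exception at 22.8 ± 17.8 and stood at 93.3 in polyA RNA. Oligodendrocyte and myelin genes had a median of 65.1 over 16 genes. Septin4, Pllp, a myelin membrane protein (87.8 ± 12.6), Scd2, a fatty acid desaturase (81.5 ± 18.7), and Cldn11, the tight junction protein of myelin (81.5 ± 12.2), were bright. Olig1, a transcription factor of the lineage, averaged 27.6 ± 19.1, and Ugt8a, an enzyme of galactolipid synthesis, 31.7 ± 25.9. Oligodendrocyte precursor markers had a median of 45.8 over 5 genes, and of 57.5 without the 18 h arrays and 69.3 in polyA RNA, above that of all genes.

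Microglia and macrophage markers had a median of 38.6, with 2 of 14 above the 50th percentile. The list median was 21.4, 32.2 and 32.5 at 18 h, 63.7 and 43.9 at 72 h, and 34.0 and 53.6 at 192 h. Without the 18 h arrays it was 45.5, against 46.1 over all genes. Sparc, a matrix protein that endothelium and astrocytes make as well, was at 93.0 ± 4.97. P2ry12, the ADP receptor of resting microglia, averaged 60.1 ± 18.9, with replicates of 31.1, 68.3 and 79.2 as lowest, median and highest. C1qb, a complement subunit, averaged 48.7 ± 17.5, Aif1 28.9 ± 16.2 and Cd14 24.97 ± 20.6. Vessel and pericyte markers had a median of 44.4 over 14 genes. Eng, a coreceptor of TGF-beta on endothelium, averaged 73.6 ± 12.5, Tfrc, the transferrin receptor, 70.0 ± 28.8, and Nos3, the endothelial nitric oxide synthase, 33.7 ± 12.6. In ependyma, choroid plexus and meninges (median 53.7 over 9 genes, 38.4 in polyA RNA) Igf2, a growth factor of these membranes, was brightest at 78.1 ± 15.0.

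**Figure D4:**
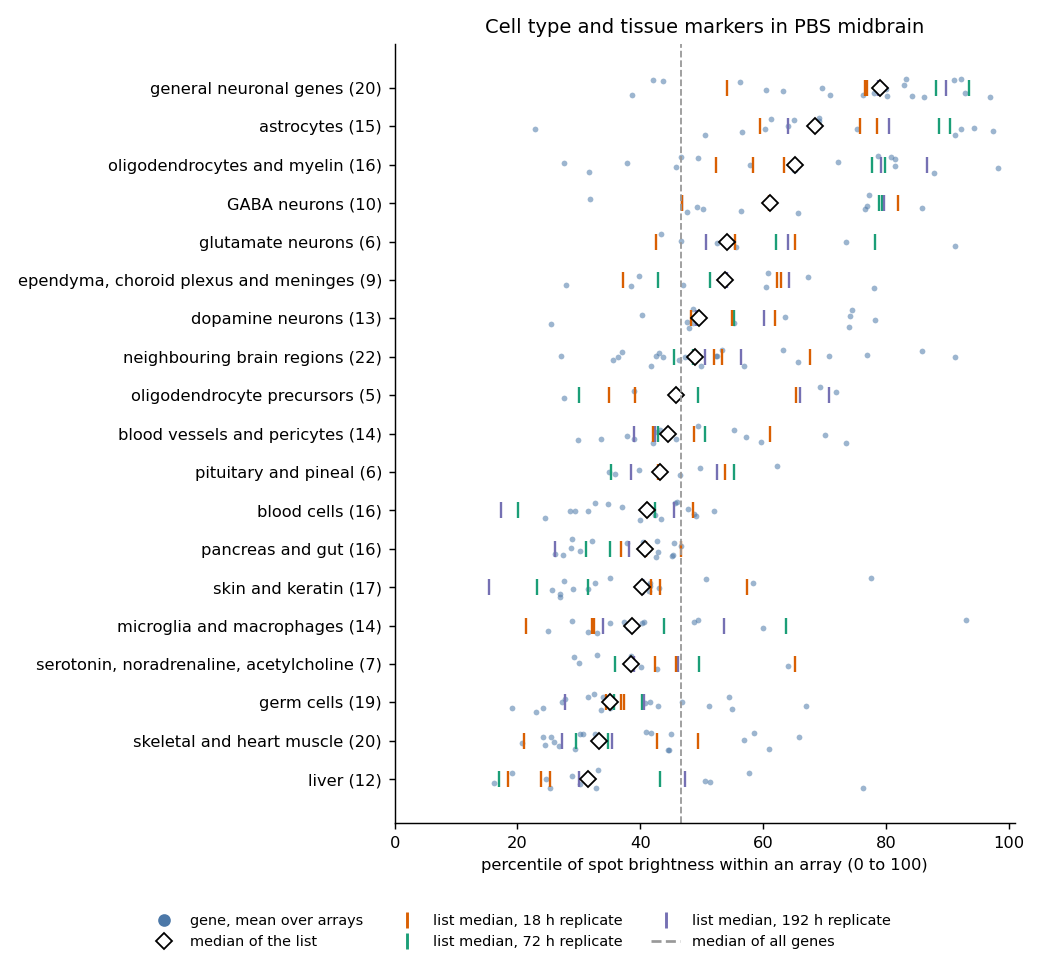
Percentile of spot brightness within an array (horizontal axis) for markers of cell types and tissues (vertical axis, number of genes in brackets); dots are genes, open diamonds list medians, coloured bars list medians of the 7 replicates, and the dashed line the median of all genes, 46.6. General neuronal genes (79.0), astrocytes (68.4) and oligodendrocytes (65.1) stand highest, and liver (31.5) lowest.

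Markers of tissues outside the brain lay below the median of all genes in each of the 6 lists. Liver genes had a median of 31.5 over 12 genes, muscle genes 33.3 over 20, germ cell genes 35.0 over 19, skin and keratin genes 40.2 over 17, pancreas and gut genes 40.8 over 16, and blood cell genes 41.2 over 16. None of the 16 pancreas and gut genes reached the 50th percentile. Single members did not follow the median: Itih3, a hyaluronan-binding serum protein, averaged 76.2 ± 33.1, Sprr1a, a cornified envelope protein, 77.6 ± 13.02, and Bmp15, a growth factor of the oocyte, 66.9 ± 23.6. Itih3 had 1 replicate at 0.867 against a median of 82.6. At the dim end, Cyp7a1, the rate-limiting enzyme of bile acid synthesis, averaged 19.0 ± 25.9, and Casq2, the calcium store protein of heart muscle, 20.7 ± 12.4.

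Sensory receptors gave a like level. Olfactory and vomeronasal receptors had a median of 38.6 over 54 genes, with 10 above the 50th percentile and none above the 75th. Olfr155, the brightest that was read on most arrays, averaged 73.3 ± 23.6. Taste and visual genes had a median of 38.2 over 28 genes. Since a missing spot is left out and not set to 0, these levels are those of spots that showed a signal, and they describe where spots of genes of other tissues lie on these arrays.

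Of large neural families, voltage-gated ion channels had a median of 46.2 over 75 genes and transmitter receptors 49.3 over 69, or 42.5 without the 18 h arrays. Cacna1i, a low-voltage calcium channel, averaged 90.4 ± 5.01, with no replicate below 82.0. Clcn3, a chloride-proton exchanger of endosomes and vesicles, averaged 85.6 ± 27.0 and Kcna1, a potassium channel of axons, 81.7 ± 19.1. Kcnj3, a G protein-gated potassium channel, was dim at 16.5 ± 24.2. Htr2c, a serotonin receptor, led the receptors at 91.5 ± 13.7, followed by Glrb, the beta subunit of the glycine receptor (85.9 ± 9.23), and Oprd1, the delta opioid receptor (84.0 ± 21.1). Gria3, a glutamate receptor subunit, was the dimmest of all 8729 genes at 9.08 ± 13.04, with replicates of 0.401, 4.64 and 37.0 as lowest, median and highest.

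Solute carriers had a median of 43.8 over 150 genes. The mitochondrial carriers Slc25a3, which imports phosphate (92.3 ± 5.86), and Slc25a1, which exports citrate (91.7 ± 7.12), led them, with Slc4a10, a bicarbonate transporter of neurons, at 89.4 ± 9.43. Collagens and matrix genes had a median of 44.1 over 54 genes, with Timp4, a metalloproteinase inhibitor found in brain, at 76.9 ± 21.2. Chemokines and interleukins had a median of 41.3 over 53 genes. In that list Il13, a cytokine of T helper cells, averaged 77.9 ± 10.3 and Cxcl12, a chemokine made by endothelium and meninges, 61.9 ± 15.5, whereas Il15, a cytokine for lymphocytes, stood at 18.2 ± 17.9.

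Transcription factors with zinc fingers had a median of 45.9 over 82 genes, and homeobox genes 38.5 over 25. Hoxb8, a homeobox gene that patterns the spinal cord, was an exception at 93.2 ± 6.82; its replicates were 79.4, 95.7 and 98.9 as lowest, median and highest, and it stood at 77.4 in polyA RNA. The other bright homeobox genes, Hoxb4 (70.2 ± 14.7), Hoxd9 (69.0 ± 30.5, n = 6) and Hoxa2 (62.5 ± 22.4), pattern the hindbrain, trunk or limbs. Whether their spots measured those transcripts was not tested. Replication-dependent histones had a median of 35.2 over 6 genes, with H2bc4 at 68.5 ± 20.2.

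The genes that varied most over the replicates showed what the spread hides. Rab3a, a small GTPase of synaptic vesicles, averaged 49.98 ± 46.5, with replicates of 0.975, 20.5 and 99.5 as lowest, median and highest. Maged1, an adaptor of neurotrophin receptors, averaged 45.8 ± 46.0. Ap2m1, a subunit of the clathrin adaptor (62.9 ± 42.2), Cox4i1, a subunit of cytochrome c oxidase (63.8 ± 41.1), and Rab6a, a GTPase of the Golgi (43.9 ± 41.1), followed. For such genes a mean near the middle of the scale joined high and low replicates. The smallest SDs belonged to Fdx1, Gpr137c, Septin4, S100b and Armc1, all near the top, where the scale ends.

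Time after PBS was tested among the 3 times, with 3 replicates for the earliest and 2 for each later one, on quantile-normalised log2 intensities with limma and Benjamini-Hochberg adjustment over 5788 probes. Array numbers ran from 445 to 457 at 72 h, from 475 to 510 at 192 h and from 515 to 567 at 18 h. Time therefore cannot be told apart from array order in any of these contrasts. No probe passed an adjusted p of 0.05 in any of the 3 contrasts or in the F-test (0.0% called each), and 452, 274, 162 and 307 had an unadjusted p under 0.05 for 72 against 18 h, 192 against 18 h, 192 against 72 h and the F-test. The lowest adjusted p-values were 0.579, 0.668, 0.273 and 0.649. In data simulated for the 192 against 18 h contrast, 15.5% of changes of 2 on the log2 scale and 0.1% of changes of 1 were called. Most changes of either size were thus missed, and the lack of calls does not exclude them.

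For the probes of smallest p in each contrast only values can be given. Rnf14, a ubiquitin ligase that binds the androgen receptor, had log2 intensities of 17.06, 17.27 and 18.07 at 18 h and of 21.05 and 20.08 at 72 h, a difference of 3.10 (SE 0.61, limma adjusted p = 0.579). Gprasp1, which sorts receptors to lysosomes, read 20.28, 17.35 and 17.15 at 18 h and 22.58 and 21.74 at 72 h, a difference of 3.90 (SE 0.86). Tm2d3, a membrane protein, read 17.49, 18.21 and 19.11 at 18 h and 14.26 and 15.12 at 192 h, a difference of -3.59 (SE 0.66, limma adjusted p = 0.668). Dync1h1, the heavy chain of dynein, read 21.05, 20.47 and 22.57 at 18 h and 18.37 and 17.32 at 192 h, a difference of -3.52 (SE 0.78). Tomm20, an import receptor of mitochondria, read 19.00 and 19.83 at 72 h and 14.86 and 16.61 at 192 h, a difference of -3.68 (SE 0.72, limma adjusted p = 0.273). Septin12, a septin of sperm, read 16.71 and 15.77 at 72 h and 20.20 and 19.84 at 192 h, a difference of 3.78 (SE 0.71). None of these differences passed the test. In none of the 6 did the groups overlap, but the probes were picked by smallest p from these same values. With 2 or 3 values a group, the lack of overlap follows from that choice and does not show a change.

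Most ribosomal and complex I probes lay on 1 side in the contrast of 192 with 18 h, although none was called. Of 35 cytosolic ribosomal protein probes 31 had a difference above 0, with a median of 0.88 on the log2 scale, and of 20 complex I probes 18, with a median of 0.98. Over all 5788 probes 2946 were above 0, and the median was 0.02. Complexes II to IV had 13 of 17 above 0 (median 0.56). The lean was not particular to these genes. The proton and sodium-potassium pumps had 12 of 13 above 0 (median 0.74) and oligodendrocyte genes 10 of 13 (0.54). Muscle genes went the other way, with 0 of 7 above 0 (-0.44). Of the 6 arrays of 18 h, 5 had the lowest mean correlations with the others. The part of array quality in these medians was not tested, and array order cannot be told apart from time. For 72 against 18 h the ribosomal and complex I medians were 0.88 (31 of 35) and 0.79 (18 of 20), against -0.05 over all probes. General neuronal genes had a median of 0.24 at 192 h (11 of 18 above 0) and of 0.85 at 72 h (14 of 18). From the microglia list of 14 genes only 6 probes passed the filters and were tested. All 6 were above 0 in both contrasts, with medians of 0.41 and 0.83. The filter on dim probes used the mean over all arrays, so a probe bright only at later times could pass it. The 6 therefore do not stand for the list. Dopamine neuron markers had medians of -0.07 (5 of 12) and -0.02 (4 of 12).

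The same RNA was read in Cy5 and in Cy3 on separate arrays in 6 replicates. In all 6 the Cy5 array had the higher array number and fewer spots with signal. Dye therefore cannot be told apart from array order and missing spots in these differences. Of 4005 probes, 9 (0.225%) differed by limma at an adjusted p of 0.05, and all 9 were brighter in Cy3. Hyls1, a centriole protein, had Cy5 minus Cy3 differences of -4.02 to -1.13 over the 6 replicates with a median of -3.30, a mean of -3.04 (SE 0.40, adjusted p = 0.00798, below 0 in 6 of 6). Soga3 (-2.48, SE 0.39), Nat8, an acetyltransferase (-2.92, SE 0.51), Spaar (-2.35, SE 0.40), Krt14, a keratin of basal epidermis (-2.32, SE 0.42), and Ezh1, a histone methyltransferase (-2.19, SE 0.41), were also below 0 in all 6. The others were Chst13 (-2.13, SE 0.36), Rbm33 (-2.11, SE 0.38) and Olfr1264, which was named after its value was seen. No probe of the dopamine, neuronal, astrocyte, ribosomal or complex I lists was called. At 0.225% of all probes, lists of 10 to 32 probes are too short for this to show a lack of dye effect. In that order 4 of 10, 3 of 12, 2 of 12, 8 of 32 and 6 of 20 lay above 0. Over all probes 1713 of 4005 did. With median centring no probe was called, although the 8 named with values still lay below 0, between -3.49 and -1.86. None of 6006 probes was called with missing spots set to the lowest rank.

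Brightness in total RNA was set against that in polyA RNA of PBS midbrain, read on 7 arrays with 4 replicates, 2 at 18 h and 2 at 192 h. Each polyA replicate was read in a single dye, Cy3 or Cy5, without a dye swap. At each time the replicate in Cy3 rests on a single array. Over the 8469 genes with values in both, matched by annotation, mean percentiles correlated at a Spearman's rho of 0.665. Whether the designs carry the same oligonucleotides is not known, and the part of shared ones in this value was not tested. Of the 161 genes above the 90th percentile in total RNA, 150 were above the 75th in polyA RNA and 94 above the 90th, which is 58.4% of the genes of total RNA and 24.2% of the 389 above the 90th in polyA RNA. The polyA designs used were kept because their ribosomal protein spots were bright. This overlap and the rho are therefore not independent of that choice. The polyA designs left out correlated with total RNA at a Spearman's rho of 0.0413 and 0.1122. Among the 20 brightest, Fdx1 (98.6 in polyA RNA), Rps7 (98.9), Cox5b (98.4) and Tmsb4x (98.2) stood at the top in both. Rps16 (63.2), Dbi (74.0), Scg2 (77.9) and Rpl32 (78.6) were lower in polyA RNA.

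In the test, 76 of 5931 probes (1.28%) differed by limma at an adjusted p of 0.05. Of these, 11 (0.185%) were higher in total RNA and 65 (1.1%) lower. RNA type, array design and array number changed together, so they cannot be told apart here. Dbi was higher, with log2 intensities of 20.23, 21.31 and 22.03 as lowest, median and highest of 7 in total RNA and 18.68, 18.89, 17.85 and 19.20 in polyA RNA, a difference of 2.63 (SE 0.45, limma adjusted p = 0.00603). Rps16 was higher by 2.64 (SE 0.47), with 18.81, 17.05, 18.02 and 19.92 in polyA RNA against 20.26 to 21.50. Also higher were Mesp2, a transcription factor of somites (2.63, SE 0.49), Rreb1, a zinc finger factor (2.56, SE 0.50), Selenom, a selenoprotein of the endoplasmic reticulum (2.36, SE 0.50), Ndufs3, a core subunit of complex I (2.21, SE 0.50), Ssu72, a phosphatase of RNA polymerase II (2.12, SE 0.46), and Phb, the mitochondrial prohibitin (1.96, SE 0.40).

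Among the lower probes, Impact, a regulator of translation found in neurons, read 16.42 to 17.43 with a median of 16.80 in total RNA and 20.59, 21.60, 20.29 and 20.59 in polyA RNA, a difference of -3.93 (SE 0.42, limma adjusted p = 8.01e-05). Ache, the acetylcholinesterase, differed by -3.69 (SE 0.54), Mt3 by -3.43 (SE 0.49), and Dpp8, a dipeptidyl peptidase, by -3.39 (SE 0.51, 6 replicates in total RNA). Tspan13, a tetraspanin (-3.32, SE 0.46), Atp5j2 (-3.22, SE 0.50), Ppp1ca, the catalytic subunit of protein phosphatase 1 (-3.18, SE 0.50), and Rab9, a GTPase of late endosomes (-3.03, SE 0.45), followed. In these 8 genes and the 8 higher ones the replicates of the RNA types did not overlap. They were picked by smallest p from these same values, so the lack of overlap adds nothing to the test.

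**Figure D5:**
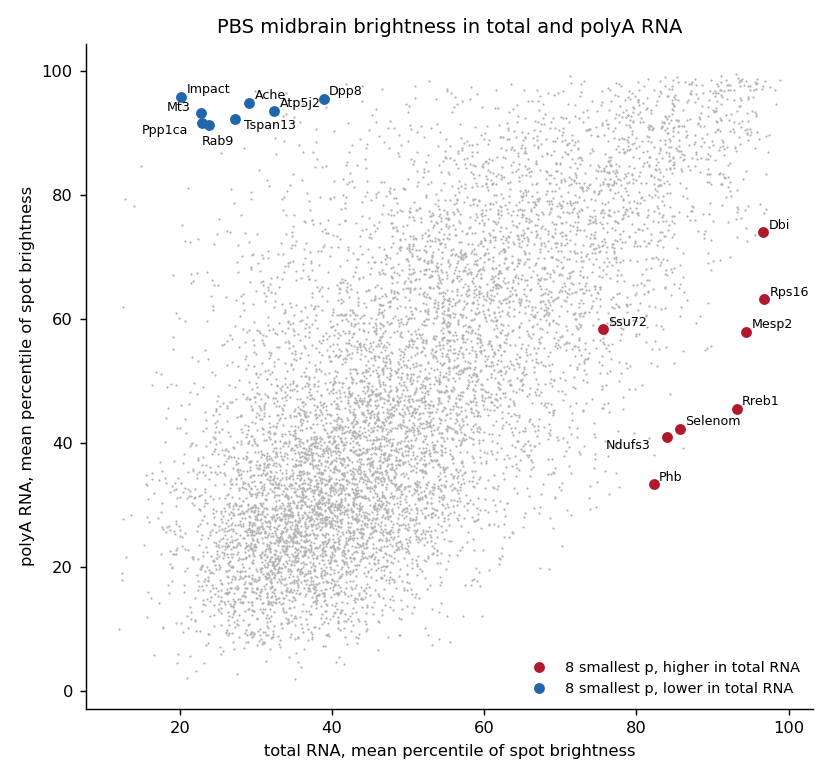
Mean percentile of spot brightness in polyA RNA (vertical axis, 4 replicates) against total RNA (horizontal axis, 7 replicates) for each gene with both values (grey); red and blue dots are the 8 probes of smallest p that were higher and lower in total RNA. The blue genes lie above the 90th percentile in polyA RNA and below the 40th in total RNA, Impact at 95.9 and 20.2.

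By list, set against 0.185% of all probes called higher and 1.1% called lower, 2 of 35 ribosomal probes and 1 of 21 complex I probes were higher in total RNA, and 18 of the 21 complex I probes had a difference above 0, with a median of 0.43 against 0.05 over all probes. ATP synthase had 2 of 9 probes called lower and none higher, with a median of -0.03, and complexes II to IV had 7 of 19 above 0 and a median of -0.16. Mitochondrial ribosomal proteins had a median of 0.53, with 36 of 49 above 0 and none called. GABA neuron markers had 2 of 9 probes called lower and a median of -0.70, and oligodendrocyte genes 1 of 16 and -0.77. No probe of dopamine neuron markers was called (median 0.21, 9 of 12 above 0). The calls were not spread evenly on the slide: 17 of the 65 lower probes lay in print row 3 and 17 in print row 9, and 9 of the 11 higher ones in print rows 6 and 7. The part of position in these calls was not tested. With single polyA replicates left out, between 27 (without 192 h replicate 1) and 49 probes were called, and without the 18 h arrays 143, of which 55 were higher and 88 lower.

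Start regions differed with brightness. RefSeq promoters (GRCm38.p6, 250 bases before to 50 after the annotated start) were matched for 6952 genes, 81.6% of the named genes not on chromosome 18. With these genes split into 5 equal groups from the dimmest to the brightest, the median ratio of observed to expected CpG was 0.50, 0.60, 0.68, 0.74 and 0.77, and the median GC content went from 56.0% to 60.7%. GGGCGG on either strand lay in 45.9% of the dimmest and 63.9% of the brightest group, against 55.1% of all. TATAAA on either strand lay in 14.2% and 6.47%, against 10.2% of all. The 136 matched genes above the 90th percentile had a median CpG ratio of 0.81, and 5.15% of them held TATAAA. The share of them with GGGCGG was 55.9%, near the 55.1% of all, and their median GC content was 59.7%, so neither continued its rise at the bright end.

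Ribosomal protein genes, of which 29 of 36 were matched, had a CpG ratio of 0.85, and 3.45% held TATAAA. The share with GGGCGG was 55.2%, near that of all genes. All 20 complex I genes were matched, with a ratio of 0.81, TATAAA in 15.0% and the GC box core in 45.0%. At the other end, 45 of 54 olfactory and vomeronasal receptor genes had a ratio of 0.14, TATAAA in 31.1% and GGGCGG in 4.44%. Over all matched genes brightness correlated with the CpG ratio at a Spearman's rho of 0.241 and with GC content at 0.168, over genes that are not independent replicates. Base composition of the printed oligonucleotides was not analysed here, so its part in these values was not tested.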

How the data were processed

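The deposited scanner files, several scans of each array, hold spot and local background intensity for both channels, with the background already subtracted in 1 column, per the file headers, which name no software. The authors' deposited value tables hold a score, a log ratio of unstated base, and served only to check the order of the spots. Of 10080 spots, 9078 have an accession. A RefSeq table named 4858 of 9008 by accession and 4057 by gene number, 85 kept the platform's symbol and 8 stayed unnamed; 263 genes had several accessions, which were averaged.

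Background-subtracted intensities at or below 0 were set missing. Scans were aligned on the median of the spots read in every scan and averaged as log2 intensity, and each array was ranked into percentiles (Python 3.11.15). A gene needed values on at least 3 arrays. Tests used quantile-normalised log2 intensities, probes left after the dimmest 33.3% were dropped, limma 3.58.1 in R 4.3.3, and Benjamini-Hochberg adjustment with a threshold of 0.05. Time was tested on 1 value a replicate after an additive fit of replicate and dye, dye on the Cy5 minus Cy3 difference within a replicate, and RNA type on replicate means with the share of Cy5 as covariate. Of the polyA designs, those whose ribosomal protein spots had median percentiles of 90.4 and 97.3 were used. The others, at 51.5 and 46.8, could not be read through their annotation and were not used. In data simulated from these samples, changes of 2 on the log2 scale were recovered in 95.5% of cases for dye and in 63% for RNA type, and changes of 1 in 2.6% and 0%. The number of arrays limits the precision.

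The members and gene lists were chosen with earlier results of these data known. Genes named are the 20 brightest with values on all 13 arrays, the 4 brightest and 2 dimmest members of each list with values on at least 10 arrays, the 5 of smallest and 5 of largest SD, and per test the 8 probes of smallest p in each direction, or 5 where none passed; Th, Ddc, Actb and Gapdh were added. Of these, some are not described. Replicate numbers 3 and 4 recur at each time, and the labels do not say that they pair samples. Deviations from the time means of same-numbered replicates correlated between -0.30 and -0.02. With 2 replicates at a time these deviations mirror each other, so the values show no pairing but cannot exclude it. Alternatives were other scalings, dye subsets, scan choices, filters and single replicates left out; scan alignment, missing spots at the lowest rank in the tests and leaving out the 18 h arrays were added after seeing the data.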

Additional observations from a re-analysis of the deposited data

Results flagged for a closer look

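A replicate was looked at again where the gap from the lowest or highest of the 7 to its neighbour was, as a share of the whole range, above Dixon's 95% critical value. This was so in 33 of 199 sets of replicate values (lists and the genes described). The critical value holds for independent normal values. Percentiles are bounded, and the genes were chosen from these same data, so the rate by chance for these sets is not known. In 28 of the 33 the replicate apart was one of 18 h, in 16 of them 18 h replicate 3 and in 9 of them 18 h replicate 4, and in 29 it was the lowest. Many of these genes are bright and lie near the upper end of the scale. The part of array quality in these values was not tested.

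Of the lists, general neuronal genes had a median of 54.0 in 18 h replicate 4, where the nearest replicate stood at 76.5, and ATP synthase 61.5 there, nearest 84.1. Voltage-gated ion channels had a median of 40.3 in 192 h replicate 4, nearest 46.9. The genes that stood apart as low in 18 h replicate 3 were the pump subunits Atp6v1a (57.0, nearest 93.8) and Atp6v1d (63.8), the citric acid cycle gene Sucla2 (52.9), the glycolytic Pgk1 (74.6), the complex I subunit Ndufa6 (81.8), the chaperone Dnaja1 (65.8), the proteasome subunit Psmb6 (63.3), and the ribosomal proteins Mrpl42 (56.6) and Rpl32 (87.5). The others were the splicing protein Hnrnpu (73.0), the astrocyte gene Ndrg2 (70.5), the serotonin receptor Htr2c (61.0), Dbi (86.2) and Syt4 (86.8). Their lists were not all low there: chaperones had a median of 59.9 and glycolysis 74.6, against 54.2 and 65.9 over all arrays. In the same replicate the otherwise dim Gria3 (37.1, nearest 14.6) and Ugt8a (83.9, nearest 36.9) were high.

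In 18 h replicate 4, the low genes were Atp5a1 (68.3, nearest 96.2), Cfl1 (84.7), Chrna6 (38.9), Itih3 (0.867), Kcna1 (40.02), Oprd1 (37.5) and Pvalb (20.6). In 18 h replicate 5, Clcn3 (25.9, nearest 93.7) and Tfrc (10.5, nearest 67.9) were low, and En1 was high at 75.3, nearest 42.7. Outside 18 h, Dync1h1 (29.9) and Map2 (65.5) were low in 192 h replicate 4, Mesp2 (84.5) was low in 192 h replicate 3, and Cyp7a1, a gene of liver, was high in 72 h replicate 3 at 78.7, nearest 21.9.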

How the results depend on the processing

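No named difference in a test changed sign among the alternatives run, but 14 of 43 list medians crossed the median of all genes under at least 1 setting other than leaving out a replicate. Over genes with values on all 13 arrays, where that median rose to 59.9, 7 lists crossed, on polyA arrays 5, without the 18 h arrays 3, and under each other setting at most 2; with single replicates left out, 1 to 4 lists did. The 0 calls over time remained 0 with percentile ranks, median centring, no background subtraction, no filter on dim probes, plain replicate means and array 447 kept. The replicate block also gave 0 calls, where it is not known whether same-numbered replicates share more than a number. Leaving out single replicates gave 0 to 1 calls: 1 for 72 against 18 h without 18 h replicate 3, and 1 for 192 against 72 h without 192 h replicate 4. The 9 dye calls became 1 with percentile ranks, 0 with median centring, 2 without background subtraction and 0 with missing spots at the lowest rank. With single replicates left out they ranged from 1 to 11, with 4 without 72 h replicate 4, 1 without 192 h replicate 4, 2 without 18 h replicate 3 and 1 without 18 h replicate 5. The 76 calls between RNA types became 30 with percentile ranks, 143 without the 18 h arrays, and 27 to 90 with single replicates left out, being lowest without a polyA replicate (27, 33, 39 and 49). For these counts the cause was not tested, beyond there being fewer samples. Over genes with values on all 13 arrays, the astrocyte median was 83.3 and that of olfactory and vomeronasal receptors 52.3, below the 59.9 of all, since fewer and brighter genes remain. Without the 18 h arrays the complex I median was 96.0, and 384 genes (4.40%) lay above the 90th percentile, among them 152 of the 161. Of the list medians under other settings, 388 moved by less than the SD between replicates and 40 by more. Signal over background limits the dim end, where spots are missing.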
